A study of Mus musculus with 8 samples.

Results

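The genes described are the MiT/TFE transcription factors Mitf, Tfeb, Tfe3 and Tfec, folliculin (Flcn) with its partners Fnip1 and Fnip2, and the Rag GTPases Rraga, Rragc and Rragd. They were taken by symbol, and all 10 were found among the 23993 genes of the table. Their transcripts were measured by bulk RNA sequencing of the thoracic aorta in male mice (C57BL/6), aged 24 weeks. The 8 libraries are taken here as 8 mice, 1 per library. Of these, 4 carried floxed Tsc1 on both alleles (Tsc1fl/fl, called Tsc1 knockout below) and 4 had wild-type Tsc1 (Tsc1+/+, control). Myh11-CreERT2 (a Cre recombinase under the smooth muscle myosin promoter that acts once tamoxifen is given) and the mT/mG fluorescent reporter were present in all 8 mice, and all received tamoxifen at 1.5 weeks, so the controls share the transgenes and the drug. Cells of the vessel wall that do not express Myh11 keep Tsc1. The labels give smooth muscle cells as the cell type, whereas the protocol describes crushed whole aortas and no sorting. The smooth muscle markers were abundant in every library, with the sum of Myh11, Acta2, Tagln, Cnn1 and Smtn between 10890 and 14670 FPKM in knockouts and between 16780 and 17210 FPKM in controls.

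Tsc1 encodes hamartin, which restrains the growth kinase mTORC1. On the lysosome, Rag GTPases work as pairs of RagA or RagB with RagC or RagD, and bring mTORC1 to the membrane when amino acids are present. Folliculin, bound to Fnip1 or Fnip2, stimulates GTP hydrolysis by RagC and RagD, and Rag pairs in that state present the MiT/TFE factors to mTORC1. Phosphorylated factors stay in the cytoplasm. Unphosphorylated factors enter the nucleus and activate genes of lysosomes and autophagy, and Flcn, Fnip1, Fnip2, Rragc and Rragd are themselves known targets of these factors in other cells. Transcript levels do not measure phosphorylation, location or GTP loading of the proteins.

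The MiT/TFE factors bind short sequences with the core CACGTG, so the bases before the start sites of 4 genes that were higher in the knockout are shown, 2 with this core and 2 without it. The sequences are from RefSeq (GRCm38.p6), read 5′ to 3′ on the strand of the gene, and end at the base before the start site. Capitals mark CACGTG.
Rragc (plus strand, chr4:123917183-123917432): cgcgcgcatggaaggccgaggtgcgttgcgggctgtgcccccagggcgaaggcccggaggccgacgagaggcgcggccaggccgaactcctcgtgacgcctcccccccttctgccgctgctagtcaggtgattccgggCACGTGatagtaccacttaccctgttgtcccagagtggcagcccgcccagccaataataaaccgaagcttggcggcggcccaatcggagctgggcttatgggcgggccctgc
Fnip1 (plus strand, chr11:54437929-54438178): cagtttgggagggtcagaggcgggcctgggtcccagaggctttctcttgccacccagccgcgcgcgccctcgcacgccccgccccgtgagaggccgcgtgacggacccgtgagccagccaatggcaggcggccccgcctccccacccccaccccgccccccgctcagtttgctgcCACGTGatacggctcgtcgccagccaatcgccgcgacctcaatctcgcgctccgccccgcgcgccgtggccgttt
Rragd (plus strand, chr4:32982748-32982997): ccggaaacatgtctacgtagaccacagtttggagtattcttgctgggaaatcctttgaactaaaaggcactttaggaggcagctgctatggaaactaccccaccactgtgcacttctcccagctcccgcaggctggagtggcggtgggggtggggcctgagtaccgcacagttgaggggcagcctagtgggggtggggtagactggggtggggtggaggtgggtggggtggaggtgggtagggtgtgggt
Flcn (minus strand, chr11:59810040-59810289): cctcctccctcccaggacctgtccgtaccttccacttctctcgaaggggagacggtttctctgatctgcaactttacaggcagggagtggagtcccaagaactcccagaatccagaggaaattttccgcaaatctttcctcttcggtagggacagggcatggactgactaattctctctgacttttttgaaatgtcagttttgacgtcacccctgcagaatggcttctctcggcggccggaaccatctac

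All 10 genes had an entry in the RefSeq promoter table, with 15 windows of 300 bases in all (250 before and 50 after a start site). CACGTG, which reads the same on both strands, was found in the windows of 2 of the 10 genes, Rragc and Fnip1, against 8.09% of the 27025 genes in the table and 7.15% of its 32851 windows. In both windows it was followed by A, giving the longer form TCACGTG on the opposite strand, which 4.29% of genes hold on either strand and which overlaps CACGTG by construction. It began at position -112 from the start site of Rragc and at position -75 from that of Fnip1. TCATGTG on either strand, held by 4.31% of genes, was in none of the 15 windows. Rragb, the remaining Rag GTPase gene and a neighbour of the members in the pathway, held CACGTG 3 times in its window, at positions -127, -36 and -3. For Rragd, Flcn and Rragb the last bases of the window were not found in a GENCODE transcript of the gene. Their RefSeq start sites (32982998, 59810039 and 153139958) lay before the first bases of the GENCODE genes (32983037, 59810016 and 153139981). The RefSeq start sites of Rragc (123917433) and Fnip1 (54438179) also lay before the first GENCODE bases (123917446 and 54438199). Positions are counted from the RefSeq start site. A match describes letters only, and the windows without one say nothing of sites elsewhere in these genes.

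Values are the deposited FPKM (fragment counts divided by transcript length and by the mapped fragments of the library), and a ± sign gives the SD over the 4 libraries of a group (n = 4). Differences are knockout minus control on the log2(FPKM + 1) scale, which understates the change of low genes, with the standard error (SE) and the Benjamini-Hochberg adjusted p of limma over all tested genes, two-sided. A gene was called at an adjusted p under 0.05 and tested where its 8 libraries averaged 1 FPKM or more. The libraries held from 11867 to 12083 genes at 1 FPKM or above. The absolute depth is unknown, and from the ratios of low values the libraries ran from about 0.763 to 2.45 times the depth of control 1. Within both genotypes replicates 1 and 3 stood apart from replicates 2 and 4 on the second principal component (16.6% of the variance), a split that no label explains, so differences of the members within each set of libraries are given beside the pooled ones. Nothing in the labels says that the libraries of a group came from pooled mice. Where they do not come from separate mice, the p-values measure only technical spread.

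Tsc1 itself had 2.99, 3.58, 3.37 and 3.71 FPKM in knockouts 1 to 4, against 4.03, 4.82, 4.95 and 6.32 FPKM in controls 1 to 4. All knockouts lay below all controls, and Tsc1 fell by 0.44 on the log2 scale (SE 0.12, limma adjusted p = 0.019). Its difference was -0.39 in replicates 1 and 3 alone and -0.49 in replicates 2 and 4 alone, and it was not called in either set. Reads from the undeleted exons and from cells without Cre also count toward these values.

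Of the 10 genes, 7 rose in the knockout aortas (Rragd, Fnip1, Rragc, Flcn, Fnip2, Mitf and Rraga), Tfeb fell, Tfe3 was not called and Tfec was too low to be tested. Of the 12107 tested genes, 17.1% were called higher and 15% lower. Rragd had passed the filter only through its knockout level. In a fit with no filter on low values, in which all 10 genes were tested, 7 were higher, 0 were lower and 3 were not called, with 11.3% of 18601 genes called higher and 10% lower. All 4 knockouts lay above all 4 controls for each of the 7 genes that rose, against 18.3% of tested genes, and below them for Tfeb, against 15.6%. The same 7 were called higher by the fit on all 8 libraries and by each fit that left out 1 library.

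**Figure D1:**
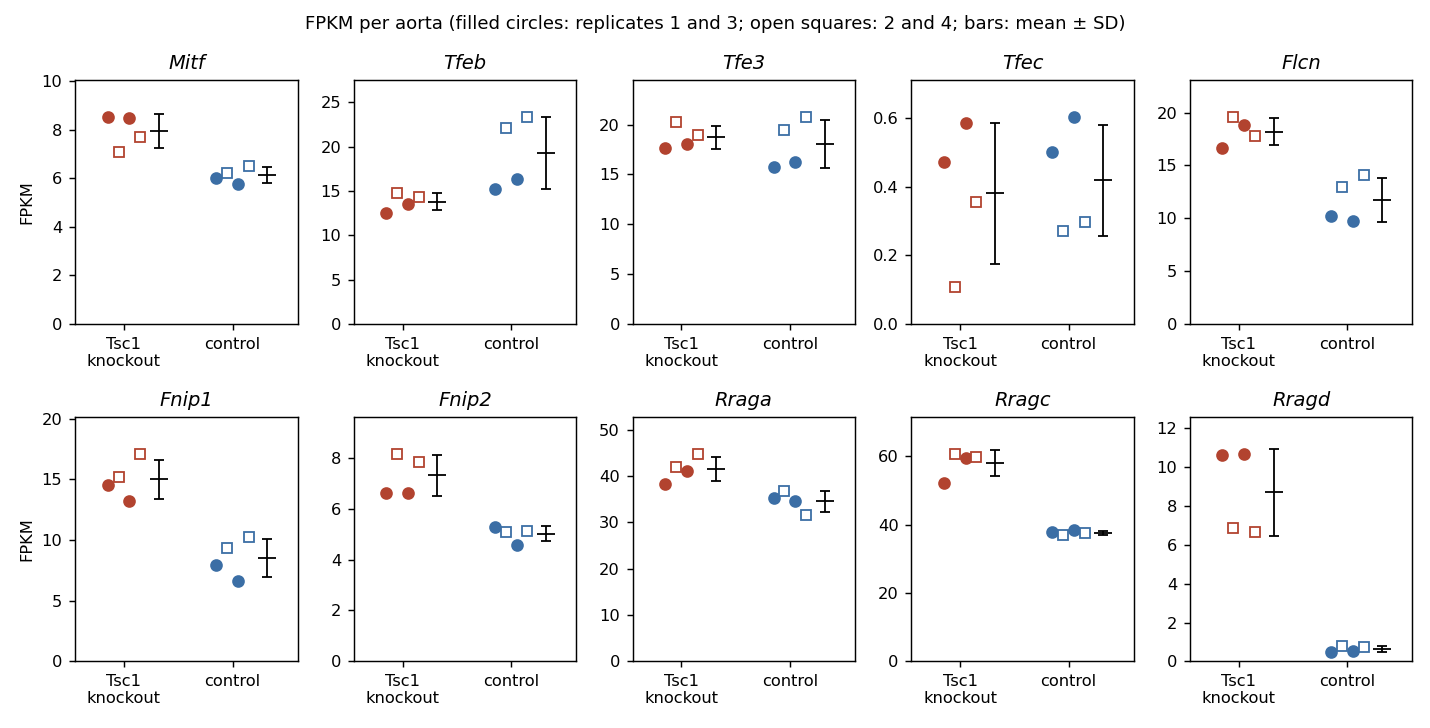
FPKM (y axis, from 0, own scale per gene) of the 10 genes in 4 Tsc1 knockout aortas (red, left) and 4 control aortas (blue, right), with filled circles for replicates 1 and 3, open squares for replicates 2 and 4 and bars for mean ± SD. Rragd lay between 6.66 and 10.6 FPKM in knockouts and between 0.507 and 0.778 FPKM in controls, Tfeb lay lower in knockouts, and the groups overlapped for Tfe3 and Tfec.

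Among the Rag GTPases, Rragd (RagD, chromosome 4, 32983037 to 33022180 in GRCm38, the same assembly as mm10) differed most. Rragd had 10.6, 6.86, 10.6 and 6.66 FPKM in knockouts 1 to 4, against 0.507, 0.778, 0.542 and 0.753 FPKM in controls 1 to 4. Knockouts 1 and 3 were the highest, while controls 1 and 3 were the lowest. Its mean was 8.69 ± 2.24 FPKM in knockouts and 0.645 ± 0.14 FPKM in controls, a ratio of 13.5, with a log2 difference of 2.53 (SE 0.16, limma adjusted p = 2.56e-05). With a pseudocount of 0.1 in place of 1 the log2 difference was 3.54.

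Rragc (RagC, chromosome 4, 123917446 to 123936997) had 52.2, 60.5, 59.5 and 59.8 FPKM in knockouts 1 to 4, against 37.7, 37.0, 38.4 and 37.5 FPKM in controls 1 to 4. The controls were within 2 FPKM of each other, and knockout 1 stood below the other knockouts but above every control. Rragc rose to 58.0 ± 3.9 FPKM in knockouts, against 37.6 ± 0.571 FPKM in controls (log2 difference 0.61, SE 0.06, limma adjusted p = 1.88e-04). The difference was 0.54 in replicates 1 and 3 and 0.68 in replicates 2 and 4. The annotation places an opposite-strand gene, 4930535I16Rik, over an exon of Rragc, and since no strand setting is stated, its reads cannot be told from those of Rragc.

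RagA is the partner of RagC or RagD, and Rraga (chromosome 4, 86575668 to 86577285) has a single exon. It had 38.3, 41.9, 41.1 and 44.7 FPKM in knockouts 1 to 4, against 35.3, 36.7, 34.5 and 31.6 FPKM in controls 1 to 4. The groups did not overlap, with the lowest knockout at 38.3 FPKM and the highest control at 36.7 FPKM. Its rise was the smallest of the 7 (log2 difference 0.26, SE 0.07, limma adjusted p = 0.0185), and it was not called within replicates 1 and 3 alone (0.18) or replicates 2 and 4 alone (0.34).

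FPKM are per length, so the levels of the Rag genes can be set beside each other. Rragd made up 16.9%, 10.2%, 15.2% and 10.03% of the summed Rragc and Rragd FPKM in knockouts 1 to 4, against 1.33%, 2.06%, 1.39% and 1.97% in controls 1 to 4. The sum of Rragc and Rragd was 66.7 ± 3.04 FPKM in knockouts and 38.3 ± 0.469 FPKM in controls. The ratio of this sum to Rraga was 1.61 ± 0.0911 in knockouts and 1.11 ± 0.0766 in controls. Even where its share was highest, Rragd stood below Rragc, which was the most abundant of the 10 genes in both genotypes.

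**Figure D2:**
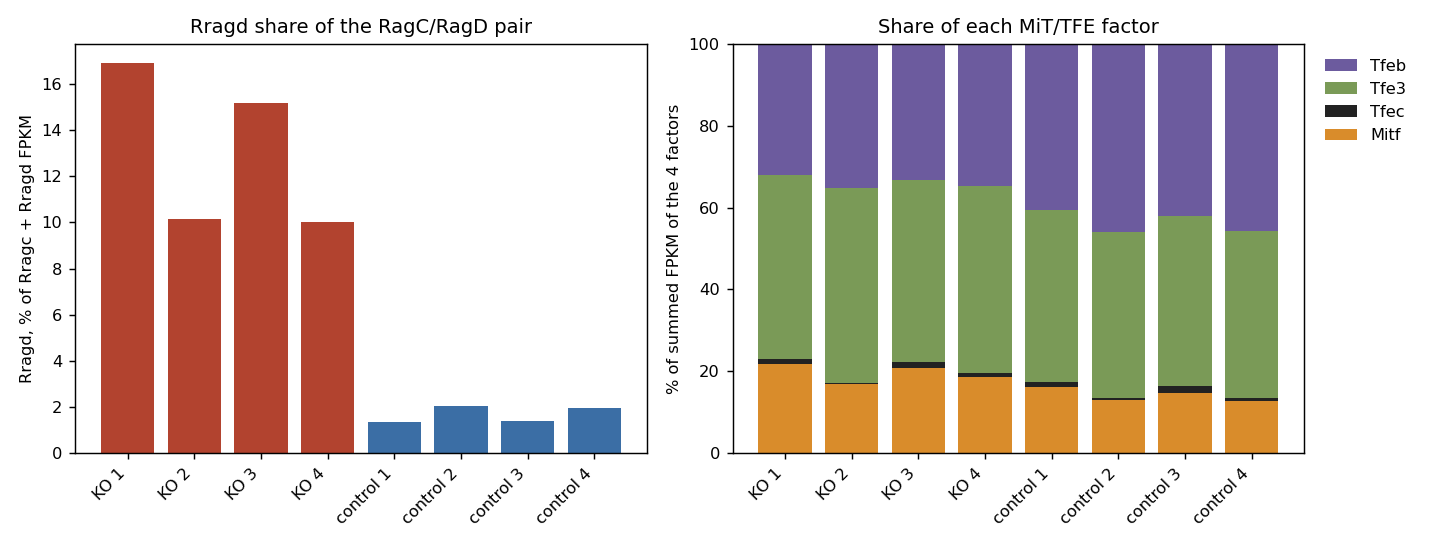
Rragd as a percentage of Rragc plus Rragd FPKM per library (left) and each MiT/TFE factor as a percentage of the summed FPKM of the 4 factors (right), Tsc1 knockouts (KO) left of controls. The Rragd share was 10.03% to 16.9% in knockouts and 1.33% to 2.06% in controls, and the Tfeb share was 32.02% to 35.1% in knockouts and 40.6% to 45.9% in controls.

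Folliculin and both of its partners rose. Flcn (chromosome 11, 59791408 to 59810016) had 16.6, 19.6, 18.8 and 17.8 FPKM in knockouts 1 to 4, against 10.2, 13.0, 9.77 and 14.1 FPKM in controls 1 to 4. Controls 2 and 4 were higher than controls 1 and 3, and the lowest knockout lay above all of them. Flcn rose to 18.2 ± 1.28 FPKM in knockouts, against 11.8 ± 2.1 FPKM in controls (log2 difference 0.60, SE 0.11, limma adjusted p = 0.00444).

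Fnip1 (chromosome 11, 54438199 to 54518235), the folliculin partner with CACGTG before its start site, had 14.5, 15.2, 13.3 and 17.1 FPKM in knockouts 1 to 4, against 7.91, 9.32, 6.65 and 10.2 FPKM in controls 1 to 4. The lowest knockout was above the highest control. Fnip1 had the second largest rise of the 10 genes, to 15.01 ± 1.59 FPKM in knockouts, against 8.52 ± 1.57 FPKM in controls (log2 difference 0.76, SE 0.12, limma adjusted p = 0.00213). The difference was 0.85 in replicates 1 and 3 and 0.67 in replicates 2 and 4.

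Fnip2 (chromosome 3, 79455974 to 79567796) encodes the other partner. It had 6.63, 8.13, 6.62 and 7.84 FPKM in knockouts 1 to 4, against 5.27, 5.08, 4.58 and 5.13 FPKM in controls 1 to 4. Knockouts 2 and 4 were the highest, and all controls lay lower than all knockouts. The log2 difference was 0.46 (SE 0.08, limma adjusted p = 0.00304), with 0.37 in replicates 1 and 3 and 0.56 in replicates 2 and 4. An opposite-strand gene, Gm17359, spans an exon of Fnip2 and is listed at 0 in all 8 libraries. Fnip2 made up 32.7 ± 1.64% of the summed Fnip1 and Fnip2 FPKM in knockouts and 37.4 ± 3.57% in controls, and the 2 groups overlapped in this share (31.4% to 34.8% against 33.4% to 40.8%).

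**Figure D3:**
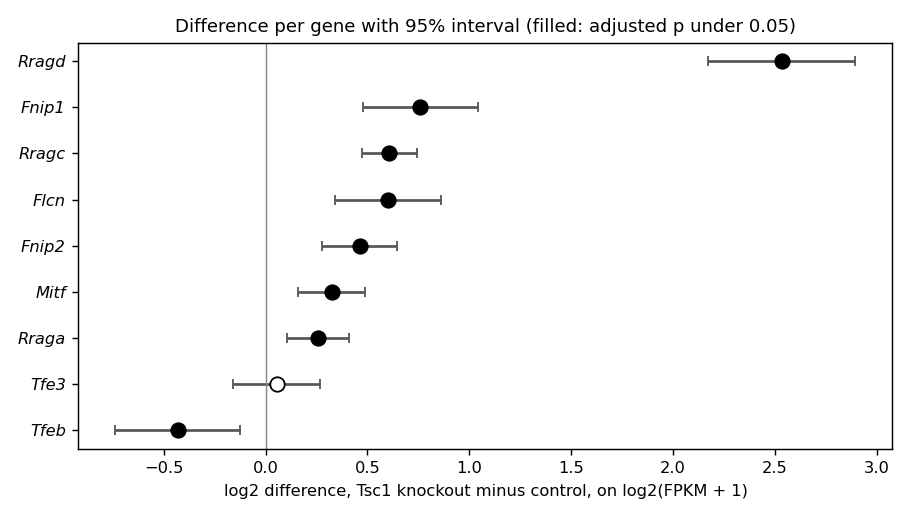
Log2 difference of each tested gene, Tsc1 knockout minus control, on log2(FPKM + 1) (x axis) with its 95% interval, filled where the limma adjusted p is under 0.05. Rragd stood at 2.53, the other genes that rose between 0.26 and 0.76, Tfe3 at 0.05 and Tfeb at -0.43.

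The transcription factors did not move as 1 group. Mitf (chromosome 6, 97807052 to 98021349), known for its role in melanocytes and osteoclasts and transcribed from several promoters, had 8.51, 7.07, 8.47 and 7.68 FPKM in knockouts 1 to 4, against 6.00, 6.20, 5.74 and 6.52 FPKM in controls 1 to 4. Knockouts 1 and 3 were the highest, and knockout 2 was the closest to the controls. Mitf rose to 7.93 ± 0.694 FPKM in knockouts, against 6.11 ± 0.329 FPKM in controls (log2 difference 0.33, SE 0.07, limma adjusted p = 0.00932). The call was lost in replicates 2 and 4 alone (log2 difference 0.19, limma adjusted p = 0.161), and in replicates 1 and 3 alone the difference was 0.47. The gene-level values do not separate Mitf isoforms.

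Tfeb (chromosome 17, 47737030 to 47792419), a main regulator of lysosomal genes, had 12.5, 14.8, 13.5 and 14.3 FPKM in knockouts 1 to 4, against 15.2, 22.1, 16.4 and 23.3 FPKM in controls 1 to 4. The knockouts were close together and below all controls, while controls 2 and 4 were well above controls 1 and 3. Tfeb fell to 13.8 ± 1 FPKM in knockouts, against 19.2 ± 4.05 FPKM in controls (log2 difference -0.43, SE 0.13, limma adjusted p = 0.0376). The difference was -0.26 in replicates 1 and 3, where it was not called, and -0.60 in replicates 2 and 4, where it was. The call was also lost without knockout 1, 2, 3 or 4, without control 2 or 4 (log2 differences of -0.53 to -0.34 when each of the 8 was left out), and with no filter on low values (limma adjusted p = 0.0595).

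Markers of several cell types moved in the direction of Tfeb, beside 15% of all tested genes called lower. Of 6 endothelial genes 5 fell and 0 rose, and their summed level was 86.9 to 138.5 FPKM in knockouts and 166.8 to 243.2 FPKM in controls. In this sum controls 2 and 4 (243.2 and 233.9 FPKM) were above controls 1 and 3 (166.8 and 209.3 FPKM). Pecam1, the highest of the 6, had 106.1, 172.2, 136.7 and 162.3 FPKM in controls 1 to 4. Tie1 had the same order of sets, whereas in Cdh5, Tek, Kdr and Vwf controls 2 and 4 were not both above controls 1 and 3. Of the 5 smooth muscle markers 4 fell and 0 rose. Of 4 tested Schwann cell and neuron markers 4 fell, and the sum of the 5 listed was 7.73 to 8.93 FPKM in knockouts and 12.9 to 14.1 FPKM in controls. Of 6 fibroblast markers 2 fell and 0 rose, and of 7 tested striated muscle markers 2 fell and 0 rose, with sums that overlapped between the groups in both lists. The striated muscle sum was 231.2 FPKM in control 4, against 17.6 to 19.6 FPKM in the other controls and 6.67 to 44.2 FPKM in knockouts. Acta1 and Myh1 were under 1 FPKM in every library but control 4. Of 7 tested fat markers 1 fell and 0 rose. The fat sum was 906 FPKM in control 1, against 267.6 to 336.7 FPKM in the other controls and 236.3 to 522.9 FPKM in knockouts. The part of these cell types in the values of Tfeb was not tested. In whole tissue, fewer cells of a type and less RNA per cell cannot be told apart.

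Tfe3 (chromosome X, 7762560 to 7775202), a factor that shares targets with Tfeb, had 17.6, 20.2, 18.0 and 19.0 FPKM in knockouts 1 to 4, against 15.8, 19.5, 16.3 and 20.8 FPKM in controls 1 to 4. The groups overlapped, and in both genotypes replicates 2 and 4 were above replicates 1 and 3. The log2 difference was 0.05 (SE 0.09, limma adjusted p = 0.694), with a 95% interval of -0.16 to 0.27. Its sign turned without control 1 (-0.0046) and in replicates 2 and 4 alone (-0.04), while replicates 1 and 3 gave 0.15.

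Tfec (chromosome 6, 16833373 to 16898441), a factor restricted largely to cells of the macrophage lineage, had 0.471, 0.108, 0.586 and 0.356 FPKM in knockouts 1 to 4, against 0.502, 0.271, 0.602 and 0.296 FPKM in controls 1 to 4. The groups overlapped, and replicates 1 and 3 were the highest of both genotypes. In the fit with no filter its log2 difference was -0.04 (SE 0.12, limma adjusted p = 0.84). The summed level of 10 macrophage markers, of which 0 were called in either direction, was also highest in replicates 1 and 3, at 248.9 and 241.1 FPKM in knockouts and 268.6 and 304.1 FPKM in controls. Replicates 2 and 4 had 182.7 and 191.2 FPKM in knockouts and 232.6 and 215.7 FPKM in controls. The part of these cells in the values of Tfec was not tested.

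The summed level of the 4 factors was 40.8 ± 1.3 FPKM in knockouts and 43.9 ± 6.62 FPKM in controls, with overlapping ranges. Tfeb made up 33.8 ± 1.41% of it in knockouts and 43.6 ± 2.72% in controls, Tfe3 45.8 ± 1.52% in knockouts and 41.3 ± 0.723% in controls, and Mitf 19.5 ± 2.26% in knockouts and 14.1 ± 1.55% in controls. The ratio of Tfeb to Tfe3 was 0.738 ± 0.0203 in knockouts and 1.06 ± 0.0843 in controls. It was below 1 in all 4 knockouts (0.711 to 0.757) and between 0.964 and 1.13 in controls. Both genes were higher in replicates 2 and 4 of each genotype, and their ratio did not overlap between the groups.

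The order of levels was similar at the top and changed below it. Rragc and Rraga led in both genotypes, each above the next gene without overlap. In knockouts Tfe3 (18.7 FPKM), Flcn (18.2), Fnip1 (15.01) and Tfeb (13.8) followed, each overlapping the next, and then Rragd (8.69), Mitf (7.93) and Fnip2 (7.30), again with overlaps. In controls Tfeb (19.2) and Tfe3 (18.1) overlapped, as did Flcn (11.8) and Fnip1 (8.52). Mitf (6.11) and Fnip2 (5.01) stood apart from their neighbours. Rragd was ninth in controls (0.645), where it overlapped Tfec (0.418), and seventh in knockouts, where Tfec (0.38) stood alone at the end.

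Of the 9 tested members, Rragd had the largest gap in log2 difference between the sets of libraries, beside the largest pooled difference (2.53). Its log2 difference was 2.93 in replicates 1 and 3 and 2.14 in replicates 2 and 4. The difference between these values, 0.80 (SE 0.12), passed the limma interaction test (adjusted p = 0.0271), as did 1.62% of the tested genes. The sets come from a split seen in these same data, so this p-value is not that of a grouping fixed beforehand. The interaction call was lost with no filter (limma adjusted p = 0.0604), with the replicate number as a block (0.0785) and without any 1 of the 8 libraries (0.0589 to 0.136). In those fits the difference stayed between 0.78 and 0.81. It was 1.12 with a pseudocount of 0.1, 0.92 with a pseudocount of 0.5 and 0.75 with quantile scaling. The interaction passed for Rragd alone of the 9 genes tested, with adjusted p-values from 0.155 (Tfeb) to 0.589 (Fnip1) for the others. Flcn differed by 0.77 in replicates 1 and 3 and by 0.44 in replicates 2 and 4, and was called in both sets, as were Fnip1, Fnip2, Rragc and Rragd. Mitf, Tfeb and Rraga were not called in at least 1 of the sets, and the sign of Tfe3 differed between the sets.

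**Figure D4:**
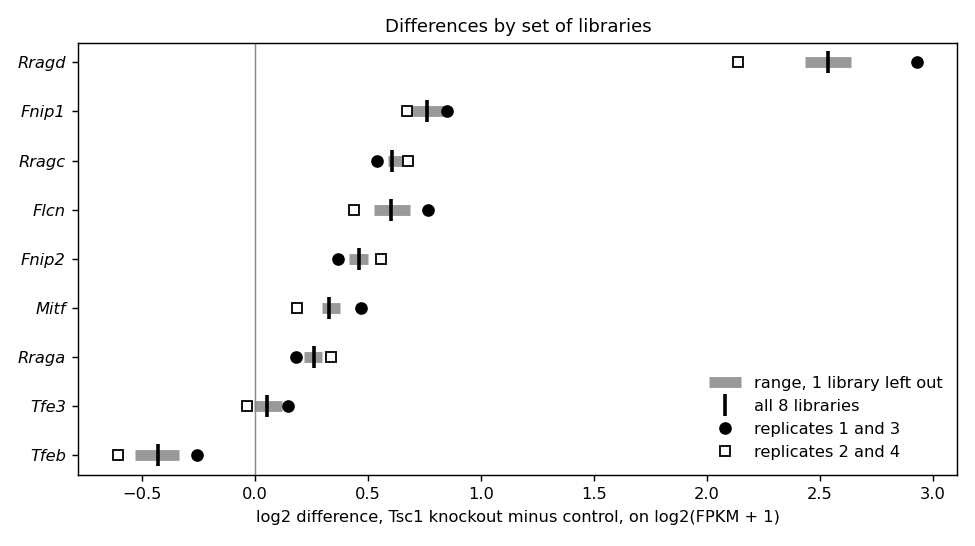
Log2 differences, Tsc1 knockout minus control, of the 9 tested genes (x axis) in all 8 libraries (bars), in replicates 1 and 3 (filled circles), in replicates 2 and 4 (open squares) and over the fits that leave out 1 library (grey ranges). Each gene other than Tfe3 kept its side of 0, and Rragd ran from 2.14 to 2.93.

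The 3 tested genes whose values over the 8 libraries were most like those of Rragd, by the root mean square difference of standardised log2 values, were Sox4, Ptgds and Nxph3 (0.06 each). Sox4 had 87.3, 53.5, 80.8 and 47.8 FPKM in knockouts 1 to 4, against 5.66, 7.53, 5.51 and 8.75 FPKM in controls 1 to 4, with replicates 1 and 3 the highest knockouts and the lowest controls, as for Rragd. For Mitf they were Ly96 (0.13), Timp4 (0.15) and Ccng1 (0.16), and for Tfeb Golga2 (0.13), Mcrs1 (0.17) and Calu (0.18). Unlike Tfeb, its 3 like genes overlapped between the groups (log2 differences of -0.24 to -0.20), and each was higher in controls 2 and 4 than in controls 1 and 3. Likeness over 8 libraries of 2 genotypes mostly reflects a shared genotype difference, the split between sets of replicates, or both.

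Of the genes around the Rag GTPases, RagB (Rragb), the Ragulator subunits that anchor the Rags to the lysosome (Lamtor1 to Lamtor5) and the lysosomal arginine sensor Slc38a9 were listed together. Of these 7 genes 4 rose and 0 fell, with a median log2 difference of 0.22, against 17.1% called higher, 15% called lower and a median of 0.01 over all tested genes. In replicates 1 and 3 alone 2 of them rose. Rragb had 3.94, 6.09, 4.24 and 6.23 FPKM in knockouts 1 to 4, against 3.16, 3.66, 2.77 and 3.57 FPKM in controls 1 to 4, so that replicates 2 and 4 were the highest of each genotype. Its log2 difference was 0.50 (SE 0.14, limma adjusted p = 0.0274), a call that was lost without knockout 2 or 4, without control 1 or 3 (limma adjusted p = 0.0613 to 0.0707) and in replicates 1 and 3 alone (0.0536). Lamtor1 (0.37) and Lamtor3 (0.30) also rose, and Lamtor5 (0.22) was the remaining gene called, a call that was lost in replicates 1 and 3 alone (limma adjusted p = 0.112) and in replicates 2 and 4 alone (0.0533).

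The GATOR complexes, which act on RagA and RagB, the KICSTOR scaffold and the cytosolic amino acid sensors gave calls in both directions. Of 16 genes 6 rose, 3 fell and 7 were not called (37.5% higher and 18.8% lower, against 17.1% and 15% of all tested genes), with a median log2 difference of 0.01. The number that rose was 3 without knockout 2 or 4, without control 1 or 3, and in replicates 2 and 4 alone, with Sesn3, Gatsl2 and Sesn2 called in each. The largest rises were those of Sesn3 and Sesn2, of the sestrin family of leucine sensors, and of Gatsl2 (Castor2), a paralog of the arginine sensor Gatsl3 (Castor1). Sesn3 rose to 14.6 FPKM in knockouts, against 4.98 FPKM in controls (log2 difference 1.39), Gatsl2 to 22.8 FPKM in knockouts, against 9.42 FPKM in controls (1.19), and Sesn2 to 4.44 FPKM in knockouts, against 1.95 FPKM in controls (0.89). Gatsl3 fell (-0.39, not called in replicates 1 and 3 alone, limma adjusted p = 0.0887), as did the KICSTOR genes Kptn (-0.60) and Itfg2 (-0.38). Gatsl2 lay between 21.6 and 25.0 FPKM in knockouts and between 8.50 and 10.7 FPKM in controls, while Gatsl3 lay between 8.49 and 10.1 FPKM in knockouts and between 11.1 and 14.2 FPKM in controls.

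Of 18 genes for kinases, phosphatases, 14-3-3 proteins and other proteins that act on the factors, 2 rose, 4 fell and 12 were not called (median log2 difference 0.04). These shares, 11.1% higher and 22.2% lower, were near those of all tested genes (17.1% and 15%). With 1 library left out 0 to 2 rose, and without knockout 4 only 2 fell. Ywhag (0.42) and Ywhaq (0.21), which encode 14-3-3 proteins that hold phosphorylated factors in the cytoplasm, rose. Ppp3ca, the catalytic subunit of the phosphatase calcineurin, fell to 15.1 FPKM in knockouts, against 19.7 FPKM in controls (-0.35, limma adjusted p = 0.0467), Rheb, the GTPase that activates mTORC1, fell by 0.28 and Tsc2 by 0.26. Leaving out 1 library ended the calls of Ywhag (without knockout 1 or 3 or control 2 or 4), Ywhaq (knockout 1 or 2 or control 2 or 4), Ppp3ca (knockout 1, 3 or 4 or control 2 or 4) and Tsc2 (knockout 4), with limma adjusted p-values of 0.0507 to 0.111. Within replicates 1 and 3 alone Ywhaq (0.14), Ppp3ca (-0.27) and Tsc2 (-0.16) were not called, and within replicates 2 and 4 alone Rheb (-0.15) was not. Among subunits of AMPK, a kinase that binds the folliculin complex, and HSP90, 0 of 8 tested genes rose and 1, Prkag2, fell (-0.44).

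Of 23 tested genes known as MiT/TFE targets outside the members, 17 rose and 0 fell (73.9% higher, against 17.1% higher and 15% lower of all tested genes), with a median log2 difference of 0.59. Ppargc1a, a coactivator of mitochondrial genes, rose to 2.90 FPKM in knockouts, against 0.871 FPKM in controls (1.08), and passed the filter through its knockout level. With no filter on low values Ppargc1a was also called (limma adjusted p = 0.0013). Gpnmb, a membrane glycoprotein, had 62.5, 43.1, 55.1 and 34.2 FPKM in knockouts 1 to 4, against 4.58, 5.10, 5.58 and 5.19 FPKM in controls 1 to 4 (log2 difference 2.99). The highest knockouts for Gpnmb were numbers 1 and 3, as for Rragd and Mitf. Targets differed in this order. Ppargc1a and Gabarapl1 were also highest in knockouts 1 and 3, whereas Sqstm1, Map1lc3b, Atp6v1a and Atp6v1h were highest in knockouts 2 and 4. Gabarapl1, an autophagosome protein, lay between 308.5 and 347 FPKM in knockouts and between 140.1 and 174 FPKM in controls (1.05). The osteoclast genes Ctsk (0.22) and Acp5 (0.21) were not called.

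**Figure D5:**
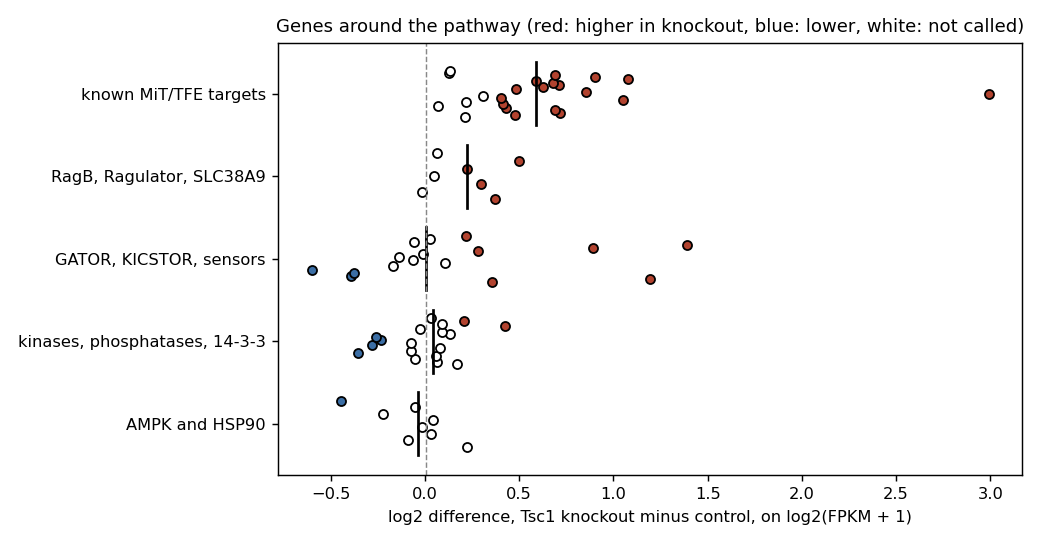
Log2 differences, Tsc1 knockout minus control, of tested genes in 5 groups around the members (x axis, 1 point per gene), red where called higher, blue where called lower and white where not called, with vertical bars at each group's median and a dashed line at the median of all tested genes. Of the known targets 17 of 23 were called higher, beside 17.1% of all tested genes.

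Genes that Mitf activates in pigment cells stayed near 0, apart from Mlana. Of the 8 listed, 7 averaged under 1 FPKM over the 8 libraries. Tyrp1, Dct, Slc45a2, Trpm1 and Oca2 had group means under 0.1 FPKM in both genotypes. Mlana (melan-A) had 2.49, 1.45, 3.09 and 1.23 FPKM in knockouts 1 to 4, against 0.406, 0.779, 0.659 and 0.177 FPKM in controls 1 to 4, and passed the filter only through its knockout level. Mlana rose (log2 difference 1.0, SE 0.22, limma adjusted p = 0.00865), and was also called with no filter on low values (limma adjusted p = 0.0142). In replicates 2 and 4 alone Mlana averaged under 1 FPKM, so that it was not tested there. Tyr, the tyrosinase of pigment synthesis, had 0.308 FPKM in knockouts and 0.401 FPKM in controls. The summed level of 6 melanocyte markers (Tyr, Tyrp1, Dct, Pmel, Mlana and Sox10) was 2.14 to 4.42 FPKM in knockouts. In controls it was 1.48 to 2.12 FPKM, so the groups all but met (2.136 FPKM in knockout 4, 2.122 FPKM in control 3). This sum includes Mlana, and a sum without Mlana was not computed. Mlana was the highest of the 6 in knockouts, with a mean of 2.07 FPKM, against 0.505 FPKM in controls. Sox10 (0.507 FPKM in knockouts, 0.683 FPKM in controls), Tyr and Dct had lower means in knockouts. Pmel (0.220 FPKM in knockouts, 0.173 FPKM in controls) and Tyrp1 had higher ones, with Tyrp1 and Dct at or near 0. The part of melanocytes in the values of Mitf was not tested.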

How the data were processed

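Whole thoracic aortas were profiled by polyA RNA sequencing, 4 Tsc1 knockout and 4 control libraries. The deposited table holds FPKM, 1 column per library; per the submitters' processing notes the authors used TopHat2, Cufflinks, Cuffdiff and build mm10. Their roles and versions, the annotation and the strand setting are not given in any source used here. Library depth is unknown, so counting intervals were not computed.

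Values were analysed as log2(FPKM + 1) in limma 3.58.1 (in R 4.3.3, functions lmFit and eBayes, trend on), genotype as the only term, for genes averaging 1 FPKM or more, with Benjamini-Hochberg adjustment over all tested genes. The fit was tested on simulated data. The members, the gene lists and the tests were chosen with earlier results of these data known. Named are all members, Tsc1, up to 3 called genes with the largest rise and fall per list, and the genes most like Rragd, Mitf and Tfeb; other genes named were chosen after their values were seen. Gene coordinates are GENCODE M21 (GRCm38). Alternatives changed the pseudocount, filter, scaling, trend, library weights, replicate block and libraries.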

Additional observations from a re-analysis of the deposited data

Results flagged for a closer look

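Rragc in knockout 1, at 52.2 FPKM, stood apart from the other knockouts (59.5 to 60.5 FPKM), with a gap of 0.875 of the group's range. Chance alone sets about 1 in 20 such groups apart, and 22 were looked at. The genotype difference of Rragd was larger in replicates 1 and 3 than in replicates 2 and 4 by 0.80 on the log2 scale (limma interaction, adjusted p = 0.0271). These sets were not fixed beforehand but come from a split seen in the same data. That call was lost with no filter on low values (0.0604), with the replicate number as a block (0.0785) and without any 1 library (0.0589 to 0.136).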

How the results depend on the processing

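Of the 7 genes that rose, Rragd, Rragc, Flcn, Fnip1 and Fnip2 kept their calls in each alternative in which they were tested. The log2 difference of Rragd ran from 2.14 to 3.54 over 19 alternatives (with a mean of at least 5 FPKM it was not tested). The Tsc1 call was lost in replicates 1 and 3 alone (-0.39, adjusted p = 0.0682) and in replicates 2 and 4 alone (-0.49, 0.0514). Tfeb, the 1 gene called lower, was not called (count 0) with no filter or in replicates 1 and 3 alone, and leaving out 1 library gave counts of 0 to 1. The log2 difference of Tfe3 ran from -0.0046 (without control 1) to 0.1206 with 1 library left out, and was -0.0376 in replicates 2 and 4 alone. Genes of the pathway lists called lower numbered 8, and 4 in replicates 1 and 3 alone. The interaction with the set of replicates passed for 196 of all genes, 92 with no filter, and 41 to 115 with 1 library left out. For the members the count was 1, and 0 with no filter, with a mean of at least 5 FPKM (Rragd was not tested), or with any 1 library left out. Same-numbered deviations correlated at 0.066 to 0.173. Knockouts 1, 2 and 3 correlated best with controls 3, 4 and 1 (0.149, 0.16 and 0.141), and knockout 4 with control 4 (0.173). Whether the replicate numbers pair the libraries was not tested. With the replicate block, 2349 genes were called higher and 2122 lower, against 2074 and 1819 without it, the interaction passed for 99 genes and 0 members, and the adjusted p for Rragd was 0.0785. The cause of these changes was not tested.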
